A study of Homo sapiens with 6 samples.

Results

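The 9 nuclear genes described here encode enzymes of the tricarboxylic acid (TCA) cycle and were chosen by symbol from the 17177 genes of the deposited table. They are *CS*, *IDH3A*, *IDH3B*, *OGDH*, *DLST*, *SUCLG1*, *SUCLA2*, *FH* and *MDH2*. All 9 were found, and all 9 passed the filter on low values. The samples were cultures of NCI-H660, an established cell line of human neuroendocrine prostate cancer (NEPC) labelled as wild type, collected on day 3. One group of 3 libraries received pyrvinium pamoate (PP), and the control group of 3 libraries received PBS. No other allele or agent is labelled. The sources used here do not give the PP concentration for these cultures, and the PP libraries come from 1 cell line at 1 time point.

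The TCA cycle runs in the mitochondrial matrix. Citrate synthase (CS) joins acetyl-CoA to oxaloacetate, NAD-dependent isocitrate dehydrogenase (IDH3A, IDH3B and IDH3G) makes 2-oxoglutarate, and the 2-oxoglutarate dehydrogenase complex (OGDH, DLST and DLD) makes succinyl-CoA. Succinyl-CoA ligase (SUCLG1 with SUCLA2 or SUCLG2) then makes succinate, succinate dehydrogenase makes fumarate, and fumarase (FH) and malate dehydrogenase (MDH2) return the carbon to oxaloacetate. The cycle feeds the respiratory chain with reduced cofactors and supplies precursors for amino acids and lipids.

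Whole counts recovered from the FPKM values (a fragment count corrected for gene length and library size) came to between 29064253 and 32481171 per library. The study's legends call the 3 libraries of a group independent samples, and its reporting summary describes in vitro work in general as repeated in biologically independent experiments. The labels do not say which libraries came from which culture, and the p-values measure the spread between these libraries. The 6 markers of neuroendocrine cells used (*INSM1*, *CHGA*, *CHGB*, *SYP*, *ENO2* and *NCAM1*) were present in every library, with a summed FPKM of 204 to 216 with PBS and of 166 to 182 with PP. Of these, 4 were lower at an adjusted p under 0.05, against 34.4% of all genes tested. Their log2 fold changes were -0.78 for *CHGA*, -0.32 for *CHGB*, -0.23 for *SYP* and -0.15 for *ENO2* (adjusted p of 8.92e-08, 0.00011, 0.00161 and 0.0198 from limma). *ENO2* passed in 11 of its 15 alternatives. *INSM1* alone was higher, by 0.21 (adjusted p = 0.00679 from limma), against 38.1% of all genes tested. *NCAM1* had a mean FPKM of 15.4 in both groups. The summed FPKM of 2 markers of prostate adenocarcinoma was 0.819 to 1.37 with PBS and 0.392 to 0.788 with PP. The defining markers of leukocytes and endothelium, *PTPRC*, *CD3E* and *PECAM1*, were at or below 0.0237 FPKM in all 6 libraries, while *CD68* and *VWF* were detected, so that the summed FPKM was 1.30 to 1.58 with PBS and 0.851 to 1.25 with PP for 3 blood markers, and 0.707 to 0.875 and 0.478 to 0.691 for 2 endothelial markers. The summed FPKM of 4 fibroblast markers was 4.0 to 4.40 with PBS and 4.42 to 4.79 with PP. Of these, *COL1A1* was higher with PP (mean FPKM of 3.30 with PBS and 4.16 with PP), while *COL1A2* (0.769 and 0.417) and *DCN* (0.0491 and 0.0197) were lower in mean and *LUM* was at or below 0.0991. The part of these markers in the results was not tested.

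Among the 9 members the PP libraries differed from the PBS libraries in both directions, with log2 fold changes of -0.32 to 0.38. Each log2 fold change is the mean log2(FPKM + 1) of the PP libraries less that of the PBS libraries. It was tested with limma, and the Benjamini-Hochberg adjustment ran over all 11726 genes whose mean FPKM reached 1. At an adjusted p under 0.05, 3 of the 9 members rose with PP (*SUCLG1*, *DLST* and *IDH3A*), against 38.1% of all genes tested. *MDH2* and *CS* fell, 2 of 9, against 34.4% of all genes tested. The other 4 members (*OGDH*, *IDH3B*, *SUCLA2* and *FH*) did not pass. The shares of members called were thus close to or below those of the transcriptome. The study's methods name 2 other cutoffs. With a P under 0.001 and a log2 change of more than 1 in size, none of the 9 passed, against 5.18% of all genes tested. With a P under 0.05, 6 of the 9 passed, *OGDH* among them, against 74.3% of all genes tested. Both were applied here to the unadjusted p from limma. The median log2 fold change of the members was -0.05, beside 0.02 over all genes tested, and the median size of the change without its sign was 0.11, beside 0.27. The members' median was 0.02 without PP replicate 2, -0.02 without PP replicate 3 and -0.09 with upper-quartile scaling, so its sign is not stable. In bulk RNA, a change in the number of cells that express a gene and a change in its RNA per cell cannot be told apart.

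**Figure D1:**
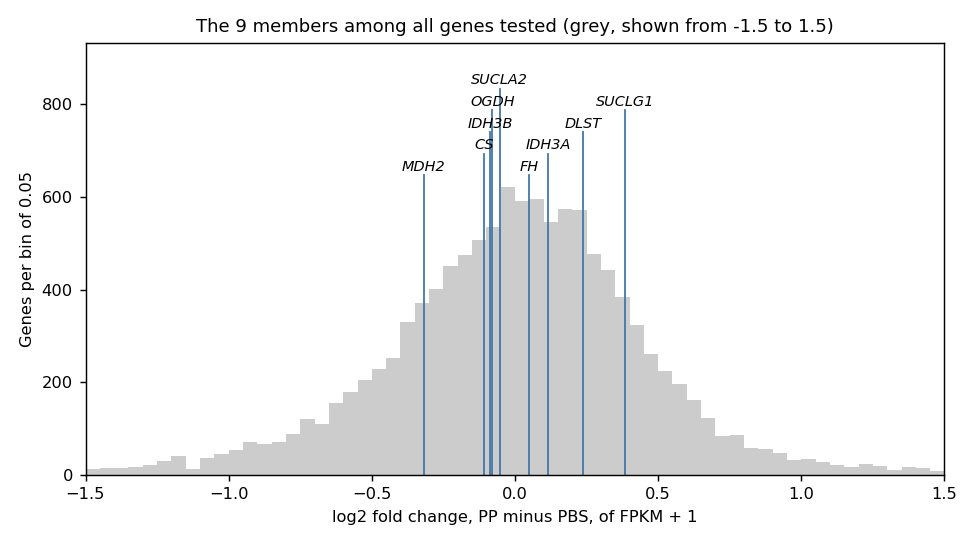
Histogram of the log2 fold change (PP minus PBS, of FPKM + 1, x axis) of the genes tested, as genes per bin of 0.05 (y axis, 11552 of 11726 genes lie within the range shown). Blue lines mark the 9 members, which run from *MDH2* at -0.32 to *SUCLG1* at 0.38, within the bulk of the distribution.

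The sequences just upstream of the 5 members that passed the test are shown, since they are the regions in which members that rose and members that fell could be compared. They are RefSeq promoters on GRCh38.p14, given 5′ to 3′ on the strand of the gene, and each is the 120 bases before the annotated start. The positions are chr2:84459281-84459400 (minus strand) for *SUCLG1*, chr14:74881796-74881915 (plus) for *DLST*, chr15:78149242-78149361 (plus) for *IDH3A*, chr7:76047986-76048105 (plus) for *MDH2* and chr12:56300331-56300450 (minus) for *CS*. Capitals mark matches to any of the 8 motifs searched on both strands.
SUCLG1: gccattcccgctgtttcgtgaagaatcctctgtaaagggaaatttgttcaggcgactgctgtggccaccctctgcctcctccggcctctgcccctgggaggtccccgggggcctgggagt
DLST: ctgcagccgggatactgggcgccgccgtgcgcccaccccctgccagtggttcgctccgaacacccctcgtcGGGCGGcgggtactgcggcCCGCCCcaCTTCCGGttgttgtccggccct
IDH3A: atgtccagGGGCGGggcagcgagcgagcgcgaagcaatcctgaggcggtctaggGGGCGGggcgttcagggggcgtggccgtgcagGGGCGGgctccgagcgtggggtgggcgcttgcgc
MDH2: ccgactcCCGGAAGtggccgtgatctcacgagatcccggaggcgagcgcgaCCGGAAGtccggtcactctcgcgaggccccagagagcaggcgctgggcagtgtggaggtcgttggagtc
CS: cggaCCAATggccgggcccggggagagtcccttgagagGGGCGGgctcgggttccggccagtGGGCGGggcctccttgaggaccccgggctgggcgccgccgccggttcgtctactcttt

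The motifs were searched in the 250 bases before the start, for the 8 of 9 members with an entry (not *OGDH*), and no 2 of their matches overlapped. The GC box GGGCGG was found in 5 of the 8 promoters and in 42.6% of all 35116 promoters, and the CCAAT box CCAAT in 3 and in 32.0%. The ETS motif CCGGAAG, which GABPA binds, was found in *DLST*, *IDH3B* and, at 2 places, in *MDH2*, so in 3 of the 8 and in 8.52% of all promoters. Thus it was present both in a gene that rose and in a gene that fell. AAGGTCA, the half-site of the estrogen-related receptors, was found in *SUCLA2* alone, and in 3.44% of all promoters. The other 4 motifs had no match in the 8 promoters, namely GCGCATGC (NRF1, in 2.63% of all promoters), CACGTG (E-box, 6.34%), TGATGNAA (ATF4 composite site, 3.14%) and TGACGT (CRE, 7.10%). The window of *SUCLG1* matched none of the 8. A match is a description of the letters in this window and not of binding.

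The RNA of the gene for the first step of the cycle was slightly lower with PP. *CS*, the citrate synthase gene on chromosome 12 (56271699 to 56300330), had an FPKM of 156.9, 153.0 and 154.7 in PBS replicates 1, 2 and 3 and of 140.0, 148.5 and 142.6 in PP replicates 1, 2 and 3. Every PP library lay below every PBS library. The log2 fold change was -0.11, with a standard error of 0.03 (limma, adjusted p = 0.0132), so the mean level fell by 7.23%. It passed under each of the 15 alternatives, with an adjusted p of up to 0.0469. Between 12535 and 14167 counts per library stood behind *CS*, the highest number among the members.

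The gene for the catalytic subunit of isocitrate dehydrogenase rose slightly in RNA, and *IDH3B*, which encodes a regulatory subunit, did not pass the test. *IDH3A* (chromosome 15, 78149362 to 78171945) had an FPKM of 23.2, 22.6 and 21.2 with PBS and of 24.7, 24.2 and 23.9 with PP. All 3 PP libraries lay above the PBS libraries, and the nearest values were 23.9 and 23.2. The log2 fold change of 0.12, with a standard error of 0.04 (limma, adjusted p = 0.0363) was the smallest rise that passed. It passed in 7 of the 15 alternatives. It did not pass with upper-quartile scaling (adjusted p = 0.139, log2 fold change 0.08), median-ratio scaling (0.0625), the replicate block (0.0591) or eBayes with no trend (0.0533). Nor did it pass without PBS replicate 2 (adjusted p = 0.0628), PBS replicate 3 (0.157), PP replicate 1 (0.0888) or PP replicate 2 (0.0768), with a range of 0.0237 to 0.157 over all its alternatives, and its value without PBS replicate 3 was 0.08.

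*IDH3B* (chromosome 20, 2658395 to 2664216) had an FPKM of 60.3, 62.7 and 63.0 with PBS and of 60.2, 62.0 and 53.3 with PP. The groups overlapped, and PP replicate 3 was lower than the other 5 libraries. Its log2 fold change was -0.09 (95% interval -0.21 to 0.03, adjusted p = 0.174 from limma), and -0.02 without PP replicate 3 (adjusted p = 0.639, and 0.0606 to 0.639 over its alternatives).

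In the 2-oxoglutarate dehydrogenase complex the E2 gene rose, and the E1 gene did not pass the test. *DLST*, which encodes the succinyltransferase (E2) core on chromosome 14 (74881916 to 74903743), had an FPKM of 49.4, 49.2 and 50.9 with PBS and of 60.7, 57.7 and 58.6 with PP. The groups were separated by more than the spread within either of them. The log2 fold change was 0.24, with a standard error of 0.04 (limma, adjusted p = 0.000149), a rise of 18.4% in the mean. The range was 0.20 to 0.25 over the alternatives. *DLST* and *SUCLA2* have processed pseudogenes, with which the counting may have shared reads.

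*OGDH*, which encodes the dehydrogenase (E1) on chromosome 7 (44606627 to 44709066), had an FPKM of 46.8, 46.7 and 47.7 with PBS and of 43.8, 45.8 and 44.0 with PP. Every PP library was below every PBS library, as in 35.5% of all genes tested, but the difference did not pass the test. The log2 fold change was -0.08 (95% interval -0.16 to -0.00041, adjusted p = 0.0661 from limma). It passed in 4 of the 15 alternatives, with median-ratio scaling (0.0379), upper-quartile scaling (0.0127), limma-voom on recovered counts (0.0484) or no filter (0.0394), and the range was 0.0127 to 0.18.

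*SUCLG1* had the highest log2 fold change of the 9. It encodes the alpha subunit that both forms of succinyl-CoA ligase share, on chromosome 2 (84423528 to 84459280). Its FPKM was 46.1, 39.7 and 43.6 with PBS and 56.7, 56.1 and 56.6 with PP. The PP libraries were close together and all above the PBS libraries, which spread more (SD of 3.23 against 0.326 FPKM). The log2 fold change was 0.38, with a standard error of 0.05 (limma, adjusted p = 6.17e-05), a rise of 31.0% in the mean. It was higher than that of 82.7% of all genes tested, and 0.33 to 0.43 over the alternatives.

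*SUCLA2*, which encodes the ADP-forming beta subunit on chromosome 13 (47942656 to 48001273), had an FPKM of 14.5, 14.2 and 14.5 with PBS and of 14.3, 12.5 and 14.9 with PP. It was the lowest member in level, with 795 to 1033 counts per library. PP replicate 2 was the lowest library and PP replicate 3 the highest, so the groups overlapped. Its log2 fold change was -0.05 (95% interval -0.19 to 0.08, adjusted p = 0.452 from limma). Without PP replicate 2 the value was 0.02 (adjusted p = 0.757, and 0.161 to 0.757 over its alternatives).

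*FH*, the fumarase gene on chromosome 1 (241497603 to 241519755), had an FPKM of 32.9, 31.6 and 34.6 with PBS and of 35.4, 32.7 and 34.4 with PP. The groups overlapped. Its log2 fold change was 0.05 (95% interval -0.05 to 0.15, adjusted p = 0.365 from limma), so an increase of more than 0.15 lay outside the interval.

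*MDH2* had the lowest log2 fold change of the 9. It encodes mitochondrial malate dehydrogenase on chromosome 7 (76048106 to 76067508), and its FPKM was 172.3, 165.3 and 157.1 with PBS and 130.3, 138.7 and 126.9 with PP. The highest PP library was below the lowest PBS library. The log2 fold change was -0.32, with a standard error of 0.04 (limma, adjusted p = 9.07e-05), and the mean fell by 19.9%. The range was -0.36 to -0.29 over the alternatives, and 21.2% of all genes tested had a lower log2 fold change.

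**Figure D2:**
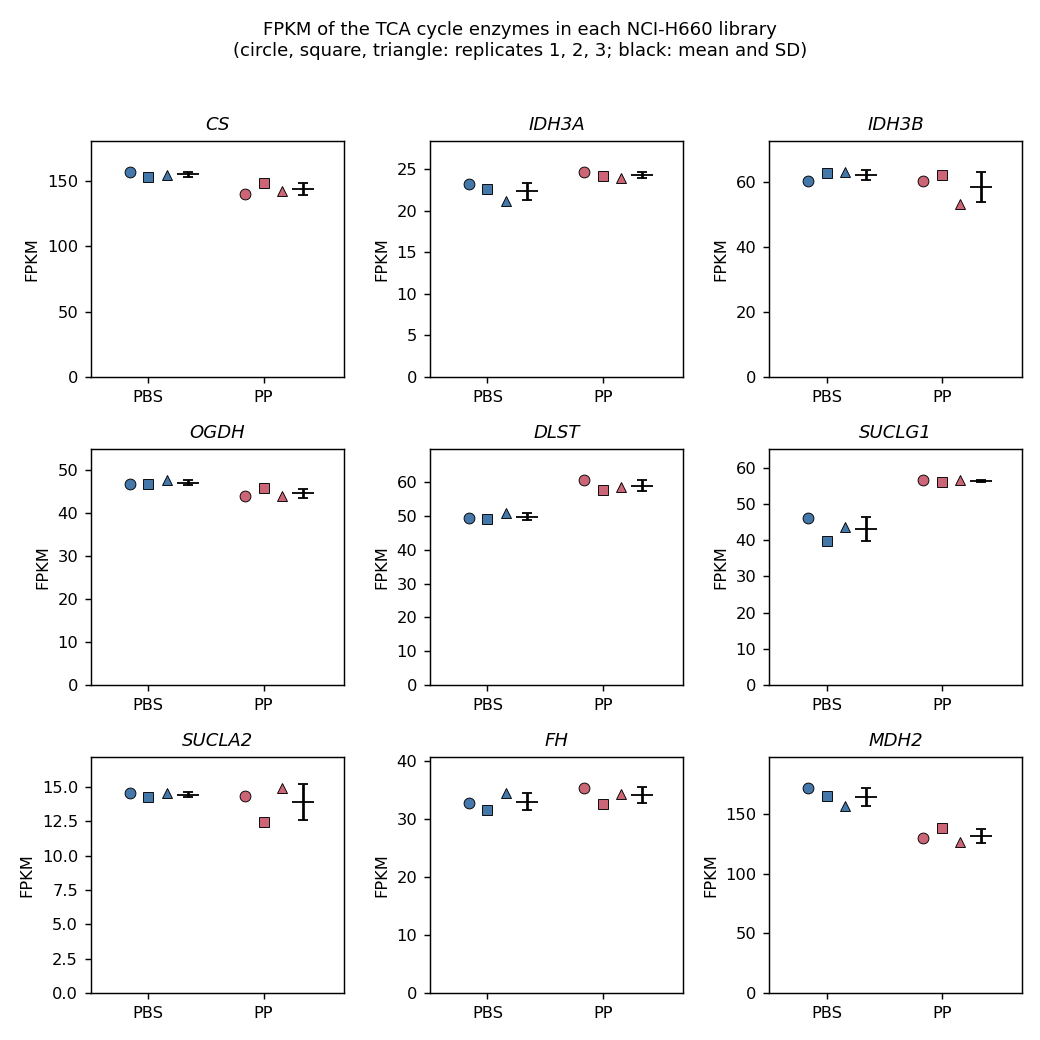
FPKM (y axis, from 0) of each of the 9 members in the 3 PBS (blue) and 3 PP (red) libraries of NCI-H660 cells. Points are libraries (circle, square and triangle for replicates 1, 2 and 3), and black marks are the mean and SD of 3. The groups do not overlap for *CS*, *IDH3A*, *OGDH*, *DLST*, *SUCLG1* and *MDH2*, and overlap for *IDH3B*, *SUCLA2* and *FH*.

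In 6 of the 9 members the groups did not overlap. The PP libraries were all higher in 3 of 9, against 39.5% of all genes tested, and all lower in the other 3, against 35.5%.

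The FPKM level, which is corrected for gene length, ran over a wide range among enzymes of 1 cycle. Other differences between genes in how their reads were counted were not assessed, and the spread between libraries does not measure them. With PBS, the order from high to low was *MDH2* (164.9 ± 7.63, SD, n = 3), *CS* (154.9 ± 1.95), *IDH3B* (62.0 ± 1.53), *DLST* (49.8 ± 0.93), *OGDH* (47.1 ± 0.538), *SUCLG1* (43.1 ± 3.23), *FH* (33.0 ± 1.49), *IDH3A* (22.3 ± 1.04) and *SUCLA2* (14.4 ± 0.164). No neighbours in that order overlapped, although the lowest *MDH2* library (157.1) and the highest *CS* library (156.9) nearly met. With PP, *CS* (143.7 ± 4.34) was above *MDH2* (132.0 ± 6.07), and the 2 did not overlap. *DLST* (59.0 ± 1.53), *IDH3B* (58.5 ± 4.61) and *SUCLG1* (56.4 ± 0.326) followed, and in this trio *IDH3B* overlapped both of the others. *OGDH* (44.5 ± 1.06), *FH* (34.2 ± 1.38), *IDH3A* (24.3 ± 0.373) and *SUCLA2* (13.9 ± 1.29) were next and did not overlap. All 9 were above the middle of the genes tested in mean FPKM, from *SUCLA2* at the 58.2 percentile to *CS* at the 97.5 percentile.

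Ratios of subunits within a library do not depend on the scaling of that library. The FPKM of *DLST* was 1.06, 1.05 and 1.07 times that of *OGDH* with PBS and 1.38, 1.26 and 1.33 times with PP. On the log2 scale the mean ratio was 0.08 ± 0.01 with PBS and 0.41 ± 0.07 with PP (SD, n = 3), a difference of 0.32. The FPKM of *SUCLA2* was 0.315, 0.359 and 0.334 times that of *SUCLG1* with PBS and 0.253, 0.222 and 0.264 times with PP, a log2 difference of -0.45. Of these 2 genes *SUCLG1*, which both forms of the enzyme share, passed the test, and *SUCLA2* did not.

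*SUCLA2* and *SUCLG2* are the alternative beta subunits. The FPKM of *SUCLA2* was 1.28, 1.24 and 1.27 times that of *SUCLG2* with PBS and 1.79, 1.61 and 1.74 times with PP, a log2 difference of 0.44. In isocitrate dehydrogenase, the FPKM of *IDH3B* was 2.60, 2.77 and 2.98 times that of *IDH3A* with PBS and 2.44, 2.56 and 2.23 times with PP, a log2 difference of -0.21. In all 4 ratios the PP libraries lay on 1 side of the PBS libraries. The two-sided exact permutation test gave p = 0.1 for each, which is the smallest p that 3 against 3 libraries allow, so it could not reach 0.05, and the value adjusted over the 4 ratios was 0.1.

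**Figure D3:**
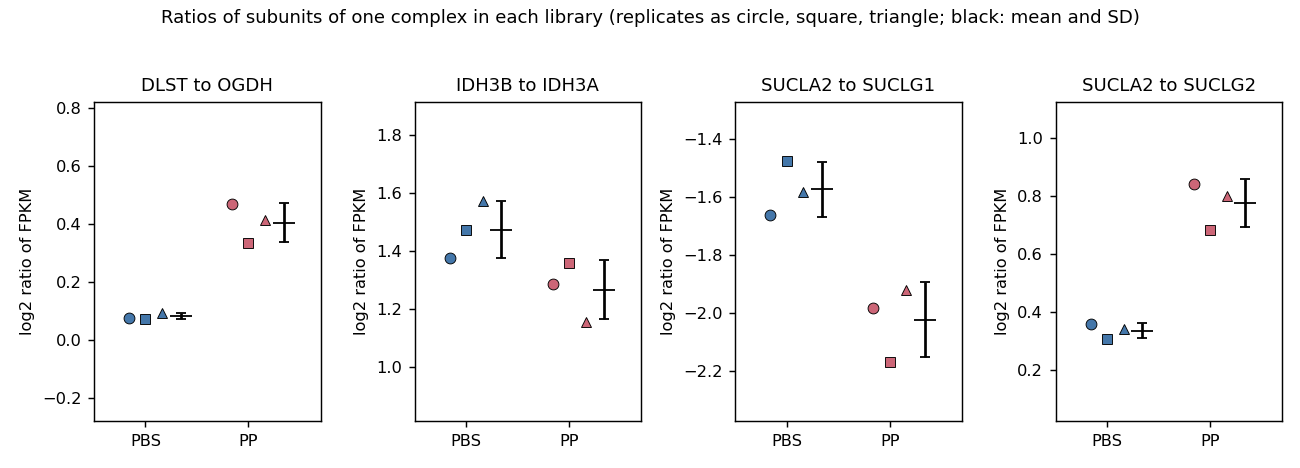
Log2 ratio of the FPKM of 2 subunits of 1 complex (y axis, the same span of values in each panel) in the 3 PBS (blue) and 3 PP (red) libraries, with the mean and SD of 3 in black. The ratios of *DLST* to *OGDH* and of *SUCLA2* to *SUCLG2* lay higher with PP, and those of *IDH3B* to *IDH3A* and of *SUCLA2* to *SUCLG1* lay lower, with no overlap in any panel, and the exact permutation test could not go below p = 0.1.

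Of the 8 other subunits of the cycle on the list, 5 were lower (34.4% of all genes tested), 1 was higher (38.1%) and 2 did not pass, with a median log2 fold change of -0.37. The largest difference was that of *SDHA*, which encodes the flavoprotein of succinate dehydrogenase. Its FPKM was 63.6, 65.3 and 66.1 with PBS and 37.5, 35.0 and 33.7 with PP (log2 fold change -0.86, adjusted p = 5.31e-08 from limma). Pseudogenes nearly identical to *SDHA* exist, so the counting may have split its reads, and this value is uncertain. *SDHC*, a membrane anchor of the same enzyme, fell by 0.57 on the log2 scale (adjusted p = 9.46e-06 from limma). *SDHB*, the iron-sulfur subunit, rose by 0.17 (adjusted p = 0.0104), and *SDHD*, the other anchor, was at -0.09 (adjusted p = 0.111).

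*IDH3G*, another subunit of isocitrate dehydrogenase, fell by 0.28 (adjusted p = 0.000372 from limma). Thus the 3 subunits of this enzyme had log2 fold changes of 0.12, -0.09 and -0.28. *SUCLG2*, the GDP-forming beta subunit, fell by 0.45 (adjusted p = 1.68e-05 from limma), with an FPKM of 11.3, 11.5 and 11.5 with PBS and of 8.01, 7.76 and 8.57 with PP.

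*OGDHL*, a paralog of *OGDH*, fell by 0.60 (adjusted p = 1.12e-05 from limma). *DLD*, the E3 subunit that the 2-oxoglutarate and pyruvate dehydrogenase complexes share, had an FPKM of 10.4, 10.4 and 10.2 with PBS and of 10.2, 10.4 and 10.9 with PP. Its log2 fold change was 0.02 (95% interval -0.08 to 0.12, adjusted p = 0.717 from limma). Of the E1, E2 and E3 genes of the 2-oxoglutarate complex, *OGDH*, *DLST* and *DLD*, the E2 gene alone passed the test.

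**Figure D4:**
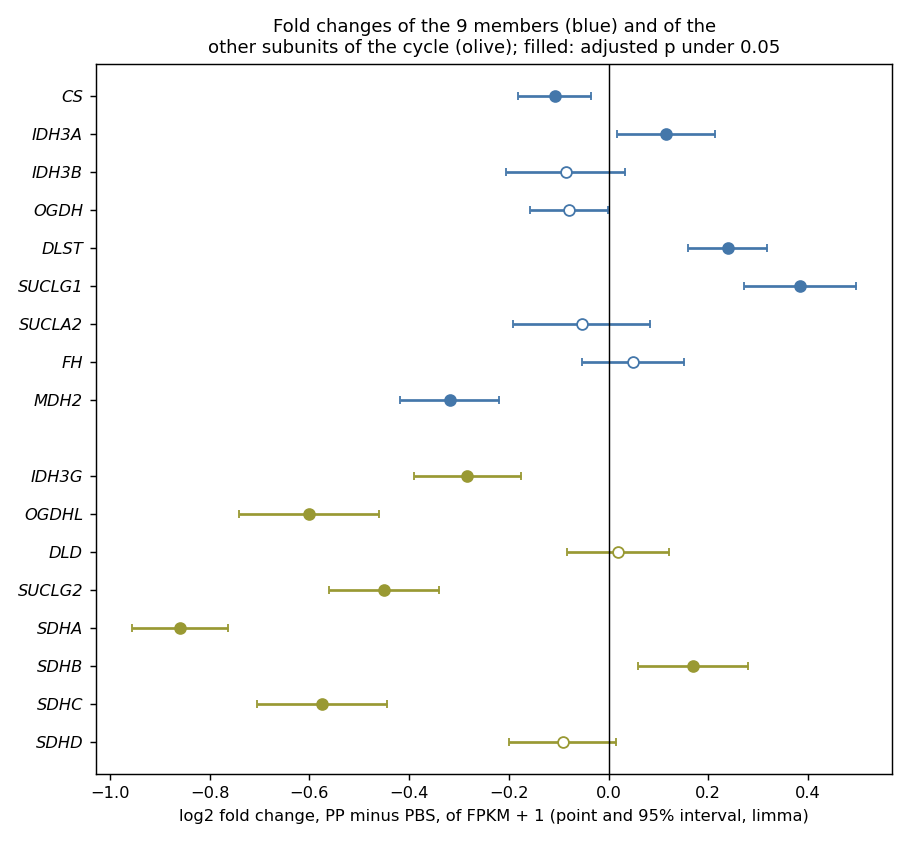
Log2 fold change (PP minus PBS, of FPKM + 1, x axis) with its 95% interval from limma for the 9 members (blue) and the 8 other subunits of the cycle (olive). Filled points have an adjusted p under 0.05. The members lie between -0.32 and 0.38, and the other subunits between -0.86 and 0.17.

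Of 5 genes for enzymes that use the same metabolites outside the cycle, 1 was higher (38.1% of all genes tested) and 4 were lower (34.4%), with a median log2 fold change of -0.48. *IDH1*, the cytosolic NADP-dependent isocitrate dehydrogenase, had an FPKM of 33.6, 34.8 and 32.9 with PBS and of 91.3, 89.3 and 95.8 with PP. Its log2 fold change was 1.42, with a standard error of 0.04 (limma, adjusted p = 7.64e-10). *IDH2*, its mitochondrial counterpart, fell by 0.61, *MDH1*, the cytosolic malate dehydrogenase, fell by 0.62, and *ACLY*, which splits exported citrate, fell by 0.48 (adjusted p of 1.17e-07, 4.89e-06 and 2.43e-06 from limma). The 2 malate dehydrogenase genes, *MDH1* and *MDH2*, were thus both lower with PP.

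Of the 11 genes for the pyruvate dehydrogenase complex and its regulators, which set the entry of pyruvate, 5 were higher (38.1% of all genes tested) and 2 were lower (34.4%). *PDP1*, the phosphatase that activates the complex, had an FPKM of 31.2, 31.2 and 31.6 with PBS and of 79.4, 79.1 and 82.2 with PP (log2 fold change 1.33, adjusted p = 4.49e-10 from limma). Among the kinases that inactivate it, *PDK3* was at -0.51, *PDK4* at -0.42 and *PDK1* at 0.43 (adjusted p of 5.41e-06, 6.73e-05 and 0.000352 from limma). *PDK2* did not pass (log2 fold change 0.10, adjusted p = 0.316 from limma). *PDHX*, which binds E3 to the core, rose by 0.50 (adjusted p = 3.44e-05 from limma).

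Among the 10 genes for entry to and exit from the cycle, 7 were tested, and 4 of these were higher (38.1% of all genes tested) and 1 lower (34.4%). *GOT1*, the cytosolic aspartate aminotransferase, rose by 0.86 on the log2 scale, *PCK2*, the mitochondrial phosphoenolpyruvate carboxykinase, by 0.83, and *ME2*, a mitochondrial malic enzyme, by 0.45 (adjusted p of 2.51e-08, 1.42e-06 and 3.48e-05 from limma). *GOT2*, the mitochondrial aspartate aminotransferase, fell by 0.32 (adjusted p = 6.63e-05 from limma). *PC*, *PCK1* and *ME1* were under the filter.

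In the list for lipoylation and the assembly of succinate dehydrogenase, 6 of 7 genes were higher (38.1% of all genes tested) and 1 was lower (34.4%). *LIAS*, the lipoyl synthase, had an FPKM of 3.43, 3.18 and 3.06 with PBS and of 6.91, 6.91 and 6.98 with PP. Its log2 fold change was 0.91 (adjusted p = 2.25e-07 from limma). *SDHAF4*, which helps mature SDHA, was at 0.46, *LIPT1*, a lipoyltransferase, at 0.41, and *LIPT2*, another, at 0.32 (adjusted p of 0.00171, 0.00302 and 0.00624 from limma). *SDHAF3*, counted as higher, had overlapping groups and passed in 11 of the 15 alternatives. The single lower gene, *SDHAF2*, did not pass without PBS replicate 1, PBS replicate 2 or PP replicate 1.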

How the data were processed

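RNA from 6 NCI-H660 libraries (3 PBS, 3 PP) was sequenced as paired ends after a stranded poly(A) preparation. The authors deposited the FPKM of 17177 genes by symbol. Their methods name Bowtie and hg19, with RSEM, Cufflinks and HTSeq. The submitters' processing notes name fastp, HISAT2, HTSeq and GRCh38 instead, and which of them made the table is not given in the sources used here. The table holds no coordinates, and those printed are from RefSeq on GRCh38.p14. The methods speak of duplicates, while the legends give 3 independent samples and the labels 3 libraries per group, and all 6 were used.

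Genes whose mean FPKM reached 1 were kept (11726). Differences were tested on log2(FPKM + 1), which understates changes of low genes, by the linear models of limma (version 3.58.1, R 4.3.3) with an intensity trend in eBayes and with Benjamini-Hochberg adjustment. Subunit ratios used an exact permutation test. Whole counts were recovered from the FPKM steps for all 17177 genes, within 0.01 of a count. Counts were not used in the main test. The recovered totals differed little, so the depth was similar, and among the members *SUCLA2* had the fewest counts. Of these steps, the limma fit alone was also run on simulated data. Python 3.11.15 was used with numpy 2.4.6, pandas 2.3.3 and matplotlib 3.10.9.

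The named genes were all members, every other subunit of the cycle, and up to 4 genes per other list with the largest absolute log2 fold change among those past the test. The members, lists and motifs were chosen with earlier results of these data known. *PDK2*, *PDK4*, *SDHAF2* and *SDHAF3* were named after their values were seen. Some genes of the lists are not reported here and were left out of the list counts. The alternatives varied the pseudocount, filter, scaling, eBayes trend, replicate block, use of recovered counts and the libraries included.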

Additional observations from a re-analysis of the deposited data

How the results depend on the processing

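Each member was refitted under 15 alternatives, 6 of which left out 1 library. Of the 135 resulting values, 122 kept both their direction and their side of the threshold. *IDH3A* no longer passed in 8 alternatives and *OGDH* passed in 4, and *SUCLA2* changed sign once, to 0.0183 without PP replicate 2, in a range of -0.103 to 0.0183 with 1 library left out. The cause was not tested. *SUCLG1*, *DLST*, *MDH2* and *CS* passed in every alternative run, and *IDH3B*, *SUCLA2* and *FH* in none. The median log2 fold change of the members was -0.0913 with upper-quartile scaling, and between -0.0675 and 0.0183 with 1 library left out. The upper-quartile scaling moved the median of all genes from 0.02 to -0.01. Between PBS and PP libraries of the same number, deviations from the group means correlated at -0.21, -0.01 and -0.13 for numbers 1, 2 and 3. Thus no shared effect of the replicate number was seen. These values cannot tell whether the libraries were prepared in pairs. With the replicate block, 2 members were higher and 2 were lower. In the same fit, 4260 of all 11726 genes tested were higher and 3878 were lower. With this block *IDH3A* kept its value of 0.12 with an adjusted p of 0.0591 from limma. The 4 subunit ratios kept their sign without any 1 library and with a pseudocount of 1. Among the members *SUCLA2* had the fewest counts, 795 to 1033 per library.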
